A study of Mus musculus with 8 samples.

Results

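The 9 genes described here encode interferon beta, the chains of its receptor and the kinases, transcription factor and inhibitors behind it. They are Ifnb1, Ifnar1, Ifnar2, Jak1, Jak2, Tyk2, Stat2, Socs1 and Socs3, picked by symbol for their place in the pathway and not by a threshold. All 9 were measured, among 22180 named genes in all. Expression was recorded on 8 Affymetrix arrays, from mouse embryonic fibroblasts (MEFs, labelled as primary cells) whose own STING gene had been knocked out. STING is the adaptor at the endoplasmic reticulum that passes on the alarm for DNA in the cytosol. Into these cells went the STING variant R284S, the mutant N154S (called a SAVI mutant in the design text, after an autoinflammatory disease), human STING (hSTING, the wild type) or the empty retroviral vector pBabe. Every line gave 1 array from cells that had received double-stranded DNA (dsDNA) carried in by a lipid reagent (Lipofectamine) for 9 h, and 1 array from control cells. Each construct was thus a single cell population without replicates. The labels do not say whether it was a clone or a pool, or whether control cells received the reagent alone.

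Interferon beta is an early type I interferon that fibroblasts release when STING or a related sensor is triggered. It binds a receptor of the chains Ifnar1 and Ifnar2, on whose inner side sit the kinases Tyk2 and Jak1. These phosphorylate STAT proteins, among them Stat2, which enters the nucleus with Irf9 and switches on the interferon-stimulated genes. Stat2 and Irf9 are themselves such genes, so the pathway feeds its own supply. Socs1 and Socs3 are inhibitors that bind the kinases or receptors and dampen the signal. Jak2 serves other receptors, among them that of interferon gamma.

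Promoter windows are printed for the gene whose signal differed between the lines by the test (Stat2), for an inhibitor that carries the same element (Socs1) and for the gene with the widest range of signals (Ifnb1). Socs1 and Ifnb1 were chosen for this after the values were seen. Each runs 5′ to 3′ on the gene's strand, from 250 bases before to 50 after the start site, from RefSeq on GRCm38.p6. In the windows of Stat2 and Socs1, capitals mark the core of the interferon-stimulated response element, searched as GAAANNGAA on both strands. In that of Ifnb1 they mark AANNGAAA, the core bound by interferon regulatory factors, a motif added after the values were seen that overlaps the other one.
Stat2, chr10:128270248-128270547, plus strand: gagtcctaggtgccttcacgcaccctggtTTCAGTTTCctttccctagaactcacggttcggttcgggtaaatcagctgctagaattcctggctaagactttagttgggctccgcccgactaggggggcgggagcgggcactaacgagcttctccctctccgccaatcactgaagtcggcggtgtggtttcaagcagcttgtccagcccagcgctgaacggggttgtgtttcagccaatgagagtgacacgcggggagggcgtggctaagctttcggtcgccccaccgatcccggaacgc
Socs1, chr16:10785487-10785786, minus strand: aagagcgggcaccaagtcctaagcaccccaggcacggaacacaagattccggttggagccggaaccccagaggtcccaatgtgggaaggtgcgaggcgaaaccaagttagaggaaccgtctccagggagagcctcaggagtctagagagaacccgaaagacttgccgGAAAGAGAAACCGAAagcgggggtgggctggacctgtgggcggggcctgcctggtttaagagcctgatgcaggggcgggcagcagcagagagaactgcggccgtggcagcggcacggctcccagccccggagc
Ifnb1, chr4:88522745-88523044, minus strand: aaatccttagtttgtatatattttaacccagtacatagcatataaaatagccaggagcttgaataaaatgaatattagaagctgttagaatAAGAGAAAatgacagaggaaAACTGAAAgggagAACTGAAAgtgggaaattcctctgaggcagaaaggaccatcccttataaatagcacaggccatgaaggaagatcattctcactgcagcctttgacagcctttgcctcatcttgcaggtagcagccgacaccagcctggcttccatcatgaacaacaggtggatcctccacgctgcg

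The response element core began 221 bases before the start site of Stat2, on the opposite strand. In the Socs1 window it began 83 and 77 bases before the start site, with the copies overlapping. None of the other 7 genes had it, and it occurs in 8.56% of the 32851 promoter windows of this length. The gamma-activated site TTCNNNGAA, which STAT dimers bind, occurs in 8.30% of them and was found once each for Ifnar1, Ifnar2 and Socs3. The AANNGAAA core, found in 23.9% of all windows, stood 159, 139 and 126 bases before the start site of Ifnb1, and also occurred in the windows of Stat2 and Socs1. A match describes letters and is no proof of binding, and a window without one may hold other elements.

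Signals are given on the log2 scale of the deposited files, where a difference of 1 between arrays is a 2-fold change. The medians of all named genes lay between 4.42 and 4.47 on the 8 arrays, and a signal below its array's median is treated as dim. The mouse gene that was knocked out, Sting1, read between 3.68 and 4.22 and was dim on all 8 arrays. The labels do not name the deleted stretch, and the human construct was not measured on its own here, so Sting1 does not check the labels. All 9 fibroblast markers tested, such as the collagens Col1a1 and Col3a1, lay above the median on all 8 arrays. Their levels were not all alike between the lines. Col3a1 ranged from 6.61 in R284S control cells to 9.05 in vector control cells, while Vim stayed within 12.52 to 12.80. Of 7 measured leukocyte markers 6 were dim on all 8 arrays, with the pan-leukocyte gene Ptprc at 2.48 to 2.67. The other, Csf1r (4.30 to 4.80), was at or above the median on 5. Of 3 endothelial markers Pecam1 was dim on all 8 arrays (3.68 to 4.07), while Cdh5 (4.09 to 5.01) and Kdr (3.93 to 5.20) were at or above the median on 6 each. Of 3 epithelial markers Epcam (2.24 to 2.58) and Cdh1 (3.88 to 4.25) were dim on all 8 arrays, and Krt8 (4.77 to 5.32) was above the median on all 8.

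Over the 8 arrays the 9 genes fell into 3 with a range of at least 1 and 6 with a narrower one. Such a range was found in 9.87% of all named genes, and the median range was 0.54. Ifnb1 had a range of 5.98, Stat2 of 4.19 and Jak2 of 1.54. The other genes ranged over 0.30 (Tyk2) to 0.75 (Socs1).

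**Figure D1:**
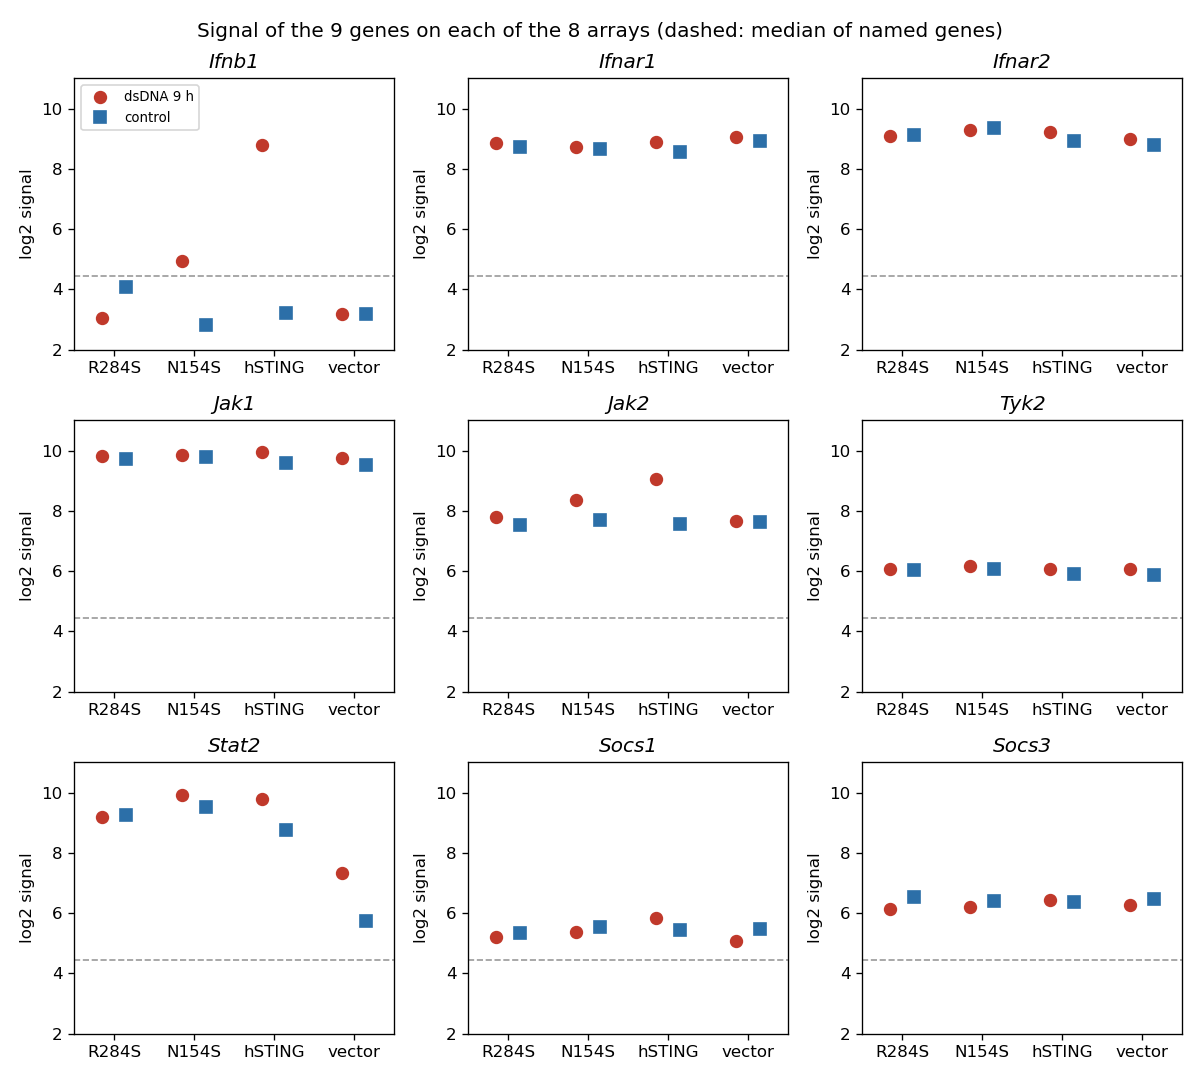
Each panel plots the log2 signal of 1 gene (vertical axis) by line (horizontal axis), with a circle for the dsDNA array, a square for the control array and a dashed line at the median of the named genes. Ifnb1 stands at 8.80 on the hSTING dsDNA array alone, Stat2 is above 8.7 on all 6 arrays of STING lines, and 6 panels span less than 1.

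Interferon beta itself was bright in hSTING cells given dsDNA. Ifnb1 read 3.04 in R284S, 4.95 in N154S and 8.80 in hSTING cells after dsDNA, against 3.18 in vector cells after dsDNA. Control cells had 4.06 in R284S, 2.82 in N154S and 3.21 in hSTING, against 3.18 in vector. It was dim on 6 of the 8 arrays, those of all 4 control cultures included, and a dim signal is not read as absence of the transcript. In bulk RNA, fewer cells making the transcript cannot be told apart from less of it per cell.

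The dsDNA difference of Ifnb1 was 5.59 in hSTING cells, where the signal was at least 20.4-fold higher with the array median in place of the dim control value. In N154S cells it was 2.13, at least 1.39-fold by the same rule. In vector cells it was 0. In R284S cells it was -1.02, between signals that were both dim. With dsDNA, Ifnb1 was 14.4-fold lower in N154S than in hSTING cells and at least 20.3-fold lower in R284S than in hSTING cells. None of these differences of 2 arrays has a replicate behind it.

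A fit over all 8 arrays with line and treatment as additive terms gave the main tests, since the design has no replicates. It was made with limma across all named genes, with Benjamini-Hochberg adjustment at 0.05. Its residual holds the uneven response of the lines to dsDNA along with noise, so an effect seen in 1 line alone counts as spread. For Ifnb1 the average dsDNA effect was 1.68 (SE 0.96, adjusted p = 0.541), with a 95% interval of -0.59 to 3.94. The hSTING line exceeded the vector line by 2.83 over both treatments (SE 1.35, adjusted p = 0.570), with an interval of -0.38 to 6.03. Neither passed the test, and the intervals leave room for large differences.

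Some interferon alpha genes were also bright in hSTING cells with dsDNA. Of 20 further interferon genes in the list, 18 were measured, and 11 of these were dim on all 8 arrays. Of the 18, 8 had their highest signal on the hSTING dsDNA array. There 4 were above the array median and 2-fold or more higher than in hSTING control cells, beside 2.51% of all genes 2-fold apart in either direction by that rule. Ifna11 (3.71 against 1.39) and Ifna2 (4.10 against 2.95) also differed by more than 1, between signals that were both dim. The 4 brighter ones, named like all of these after their values were seen, were Ifna4, Ifna6, Ifna1 and Ifna15, which encode interferon alphas. Ifna4 read 9.03 with dsDNA in hSTING cells, against 4.80 in hSTING control cells, and lay between 4.75 and 5.37 on the other 7 arrays. Ifna6 read 7.04, against 3.01 in control cells, Ifna1 8.26 against 6.08, and Ifna15 5.93 against 4.65. The control signal of Ifna6 was dim, so its fold was at least 6.02. Interferon alpha genes are near-identical copies whose probes may cross-react, so the share of each is uncertain. In N154S cells with dsDNA these 4 genes read 5.37, 3.38, 6.17 and 4.50, within 0.32 of their control signals in that line, while Ifnb1 read 4.95. The interferon lambda genes Ifnl2 and Ifnl3 read 6.24 and 4.88 with dsDNA in hSTING cells, against 6.18 and 5.29 in hSTING control cells. In the fit none of the 18 passed in any of the 9 coefficients. At an unadjusted p under 0.05, 1 of them passed for the dsDNA effect, as did 10.8% of all genes.

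**Figure D2:**
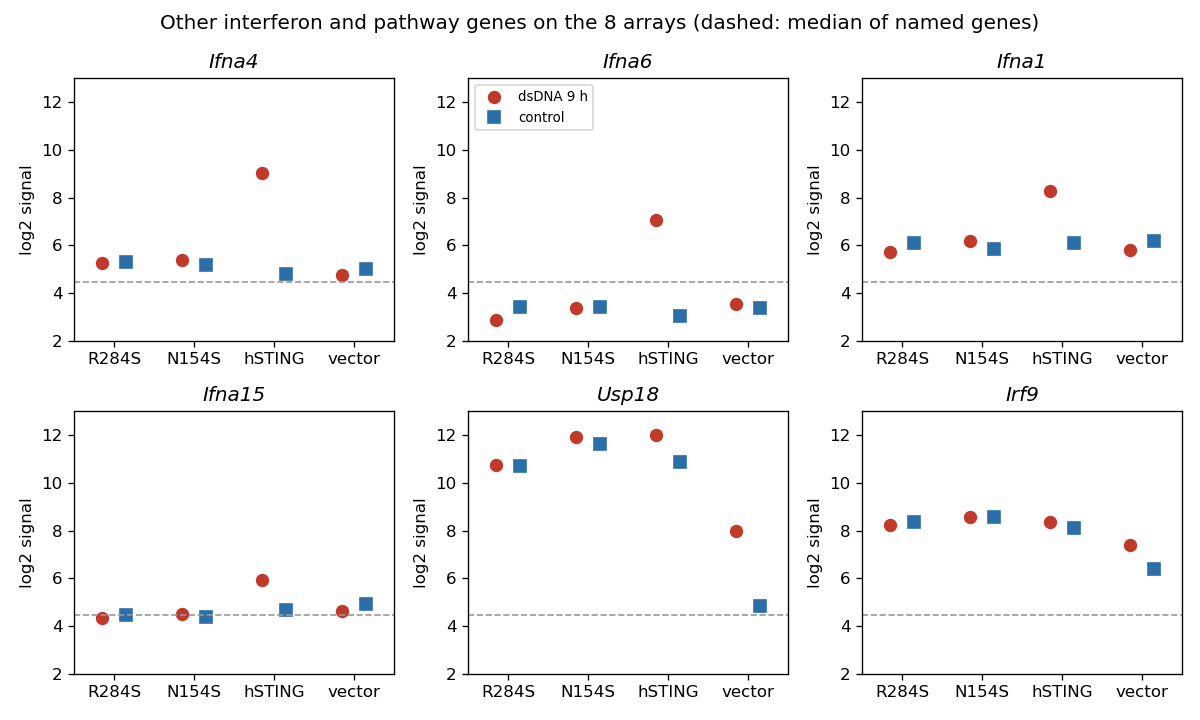
Each panel plots the log2 signal of 1 gene (vertical axis) by line (horizontal axis), with circles for dsDNA and squares for control arrays and a dashed line at the median of the named genes. The 4 interferon alpha genes stand apart on the hSTING dsDNA array, while Usp18 and Irf9 are above both vector arrays on every array of a STING line.

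Of the 9 genes, Stat2 was the one that differed between the lines by the test. With dsDNA its signal was 9.20 in R284S, 9.93 in N154S and 9.77 in hSTING cells, against 7.34 in vector cells. The control signals were 9.26 (R284S), 9.51 (N154S) and 8.74 (hSTING), against 5.74 for vector cells. All 6 arrays of STING lines were above both vector arrays. Control cells thus had a high Stat2 signal in all 3 STING lines while their Ifnb1 signal was dim. How many of all genes separate these arrays in the same way was not counted, here or for the genes below.

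Averaged over the 3 STING lines, Stat2 was higher than in the vector line by 2.86 (SE 0.29, adjusted p = 0.00796), with a 95% interval of 2.18 to 3.54. It was 1 of 9 members called, where 1.43% of all genes were called. Against the vector line it rose by 2.69 in R284S cells (SE 0.35, adjusted p = 0.0163) and by 3.18 in N154S cells (SE 0.35, adjusted p = 0.0119). There, too, 1 of 9 members was called, beside 2.04% of all genes for R284S and 1.32% for N154S. In hSTING cells the difference was 2.72 (SE 0.35, adjusted p = 0.0632), with an interval of 1.88 to 3.55. It did not pass, 0 of 9 members did and 0.0992% of all genes did, and 1 member had an unadjusted p under 0.05. These comparisons share the vector arrays.

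The calls of Stat2 depended on the variance model and on the N154S pair of arrays. Under trended, robust variances (an eBayes option) its adjusted p was 0.0502 for the 3 lines together, 0.0767 for R284S and 0.0569 for N154S. Without the N154S pair it was 0.0789 for the lines together and 0.0597 for R284S. The call in hSTING cells was gained without the R284S pair, with an adjusted p of 0.0231.

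**Figure D3:**
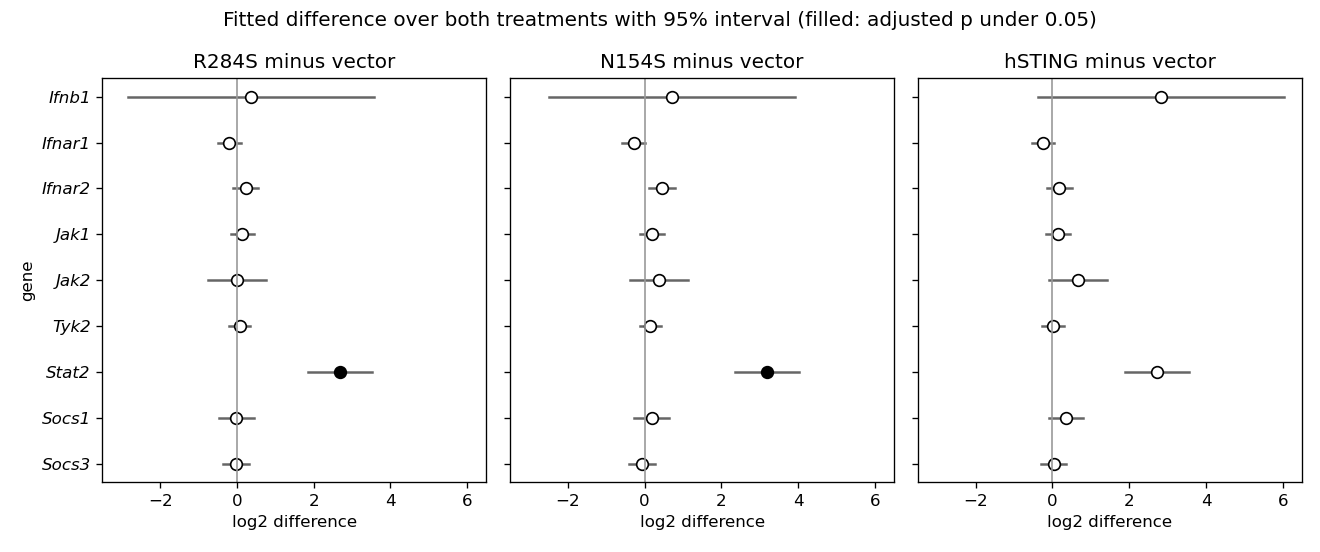
Points give the fitted log2 difference of a line from the vector line over both treatments (horizontal axis) for each gene (vertical axis), bars its 95% interval, and filled points an adjusted p under 0.05. Stat2 lies at 2.69 in R284S, 3.18 in N154S and 2.72 in hSTING cells, and 8 of 9 genes have open points in every panel.

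The difference of Stat2 from vector cells was larger in control than in dsDNA cells. In control cells it was 11.5-fold higher in R284S, 13.6-fold in N154S and 8-fold in hSTING cells than in vector cells. With dsDNA it was 3.63-fold higher in R284S, 6.02-fold in N154S and 5.39-fold in hSTING cells than in vector cells. Vector cells with dsDNA themselves read 3.03-fold above vector control cells. The dsDNA difference of Stat2 was -0.06 in R284S, 0.42 in N154S and 1.03 in hSTING cells, against 1.60 in vector cells.

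Vector cells thus had a higher Stat2 signal after dsDNA although they carried no STING construct, and Ifnb1 read 3.18 on both of their arrays. In a second fit the dsDNA effect on Stat2 in the 3 STING lines was set against that in the vector line. The effect in the STING lines minus that in the vector line was -1.14 (SE 0.41, unadjusted p = 0.0324, adjusted p = 0.994), with an interval of -2.14 to -0.13. No gene passed in this fit (0% of all genes called, 798 at an unadjusted p under 0.05), and 0 of 9 members passed with 1 of them, Stat2, at an unadjusted p under 0.05. A different response of Stat2 in cells with STING was therefore not shown.

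The genes whose signals over the 8 arrays ran most like Stat2 were Ddx58, Oasl2 and Dhx58. Pearson's r over the 8 arrays was 0.998 for Ddx58, which encodes the RNA sensor RIG-I, 0.995 for Oasl2, of the oligoadenylate synthetase family, and 0.992 for Dhx58, which encodes the RIG-I relative LGP2. They came first among 1368 genes with a range of at least 1 and a mean at or above the median. The 8 points share lines and treatments, so r is a description. Ddx58 read 9.21 in R284S, 9.59 in N154S and 8.88 in hSTING control cells, against 6.56 in vector control cells.

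Irf9, which encodes the partner of Stat2, and Usp18, which encodes a brake on the receptor, also differed between the lines by the test. Of 6 further measured genes of JAK-STAT signalling, Irf9 was the one that passed, higher in the 3 STING lines than in the vector line by 1.47 (SE 0.21, adjusted p = 0.0253). Line by line against vector, Irf9 passed in R284S (adjusted p = 0.0470) and N154S cells (adjusted p = 0.0348) and not in hSTING cells (adjusted p = 0.239). Irf9 read 8.24 in R284S, 8.56 in N154S and 8.34 in hSTING cells with dsDNA, against 7.39 in vector cells with dsDNA. Without dsDNA the signals were 8.34 for R284S, 8.55 for N154S and 8.11 for hSTING, against 6.39 for vector. The other STAT genes of the list varied little over the 8 arrays, with Stat3 at 9.46 to 9.75 and Stat6 at 8.20 to 8.58.

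Of 19 further regulators, most of them inhibitors, Usp18, whose product blocks Jak1 at the receptor chain Ifnar2, passed with a difference of 4.91 (SE 0.54, adjusted p = 0.0105). That is for the 3 STING lines together. Against vector it also passed in R284S (adjusted p = 0.0256) and N154S cells (adjusted p = 0.0180), and not in hSTING cells (adjusted p = 0.0632). Usp18 read 10.74 in R284S, 11.93 in N154S and 12.01 in hSTING cells with dsDNA, against 7.98 in vector cells with dsDNA. Its control signals were 10.71 in R284S, 11.64 in N154S and 10.88 in hSTING, against 4.84 in vector cells, so that all 6 arrays of STING lines were above both vector arrays. The dsDNA difference was 0.03 in R284S, 0.29 in N154S and 1.13 in hSTING cells, against 3.14 in vector cells. Of all 64 measured genes in the 5 further lists, 2 rose and 0 fell for the 3 STING lines together, where 1.43% of all genes were called in either direction. An unadjusted p under 0.05 was found for 14 of the 64 and for 14.5% of all genes. Their median difference was 0.06, against 0.00 for all genes. Under trended, robust variances 1 of the 64 passed, without the N154S pair 0 did, and without the hSTING pair 5 did.

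The receptor chains and the receptor's own kinases varied within narrow limits. Ifnar1 read 8.84 in R284S, 8.73 in N154S and 8.90 in hSTING cells with dsDNA, against 9.04 in vector cells with dsDNA. Control cells had 8.73 in R284S, 8.66 in N154S and 8.57 in hSTING, against 8.93 in vector. All 6 arrays of STING lines were below both vector arrays, by as little as 8.90 (hSTING, dsDNA) against 8.93 (vector, control). The average difference of -0.25 (SE 0.10, unadjusted p = 0.0460, adjusted p = 0.334) did not pass. Of 11 further receptor chains that signal through JAK kinases 0 passed for the 3 STING lines together, and 5 had an unadjusted p under 0.05, as had 14.5% of all genes.

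Ifnar2, the ligand-binding partner chain, lay the other way. With dsDNA its signal was 9.10 in R284S, 9.30 in N154S and 9.23 in hSTING cells, against 8.99 in vector cells. The control signals were 9.13 (R284S), 9.37 (N154S) and 8.91 (hSTING), against 8.79 for vector cells. On 5 of 6 arrays of STING lines it was above both vector arrays, and the average difference of 0.28 did not pass (SE 0.12, unadjusted p = 0.0438, adjusted p = 0.327). In N154S cells it was higher by 0.45 (SE 0.14, adjusted p = 0.215), with an interval of 0.11 to 0.78.

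Jak1 read between 9.52 in vector control cells and 9.96 in hSTING cells with dsDNA. The Tyk2 signal lay between 5.86 in vector control cells and 6.16 in N154S cells with dsDNA. Both, like Ifnar1 and Jak2, were higher with dsDNA than without it in all 4 lines. Those differences were 0.04 to 0.36 for Jak1 and 0.04 to 0.21 for Tyk2. The average effects of 0.18 (SE 0.09, adjusted p = 0.497) and 0.13 (SE 0.08, adjusted p = 0.591) did not pass. The share of all genes that were higher with dsDNA in all 4 lines was not counted, so the shared direction is a description. For the 3 STING lines against the vector line the interval was -0.09 to 0.41 for Jak1 and -0.15 to 0.31 for Tyk2. Both leave out a difference of 2-fold between these single populations, but they hold no spread between replicate cultures.

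Jak2 was the kinase gene with a wide range. With dsDNA its signal was 7.79 in R284S, 8.35 in N154S and 9.07 in hSTING cells, against 7.67 in vector cells. Without dsDNA the signals were 7.53 for R284S, 7.71 for N154S and 7.55 for hSTING, against 7.63 for vector. The hSTING dsDNA array stood 0.72 above that of N154S, which stood 0.56 above the next, and the remaining 6 arrays lay within 0.26 of each other. The order of the lines after dsDNA was that seen for Ifnb1 in hSTING and N154S cells. Between the genes r was 0.937 over the 8 arrays, which is a description, since the arrays share lines and treatments. It rests largely on the hSTING dsDNA array, the highest for both genes. Ifnb1 read 8.80 there, against at most 4.95 elsewhere, and was dim on 6 arrays.

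In hSTING cells Jak2 was 2.87-fold higher with dsDNA than in control cells. The average dsDNA effect over the 4 lines was 0.62 (SE 0.23, unadjusted p = 0.0303, adjusted p = 0.457), with an interval of 0.08 to 1.15. It did not pass. The signals most like those of Jak2, by r over the 8 arrays, were those of the phosphatase subunit gene Ppp2r5a (0.998), of Ahr, which encodes the aryl hydrocarbon receptor (0.993), and of Armc8 (0.990), among the same 1368 genes. Ahr read 7.87 in hSTING cells with dsDNA, against 5.90 in hSTING control cells.

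**Figure D4:**
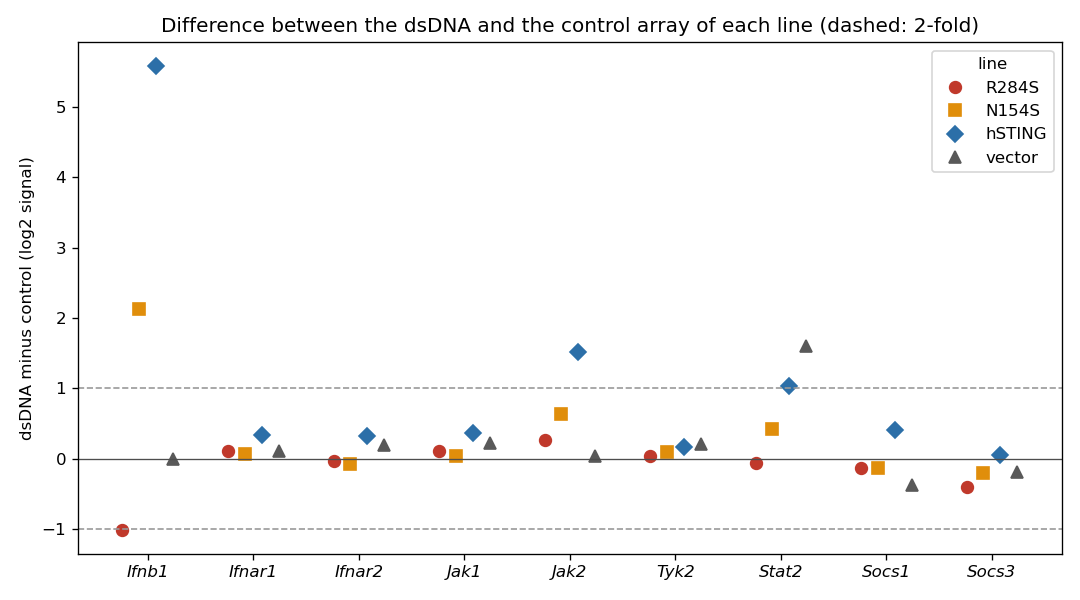
Points give the log2 signal with dsDNA minus that of control cells (vertical axis) for each gene (horizontal axis) in the 4 lines, and dashed lines mark 2-fold. Above the upper line lie Ifnb1 in N154S cells at 2.13, Ifnb1, Jak2 and Stat2 in hSTING cells at 5.59, 1.52 and 1.03, and Stat2 in vector cells at 1.60, and Ifnb1 in R284S cells lies below the lower line at -1.02.

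The inhibitors Socs1 and Socs3 differed little between lines or treatments. Socs1, which acts on the kinases, read 5.19 in R284S, 5.38 in N154S and 5.83 in hSTING cells with dsDNA, against 5.08 in vector cells with dsDNA. Control cells had 5.33 in R284S, 5.52 in N154S and 5.43 in hSTING, against 5.46 in vector. Its average difference of the STING lines from the vector line was 0.18 (SE 0.15, adjusted p = 0.670), with an interval of -0.19 to 0.54. The highest signal was that of hSTING cells with dsDNA, 0.40 above that of hSTING control cells and 0.75 above that of vector cells with dsDNA.

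Socs3, which is best known as a brake on interleukin 6 family receptors, read between 6.13 in R284S cells with dsDNA and 6.54 in R284S control cells. Its dsDNA difference was negative in 3 of 4 lines, and the average of -0.19 (SE 0.10, adjusted p = 0.515) did not pass. A further Socs3 probe set was dim on all 8 arrays, at 3.67 to 4.34. Of the relatives of these genes in the list, Socs2 read 7.36 in hSTING cells with dsDNA, against 6.49 in hSTING control cells, and 6.08 to 6.49 on the other 7 arrays.

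Counted over 2 arrays at a time, 0 to 3 of the 9 genes were 2-fold or more apart with the brighter signal at or above its array's median. For dsDNA against control cells, 0 of 9 were in the R284S line (0.0676% of all genes), and 1 was in N154S (Ifnb1, beside 0.487%). In hSTING 3 were (Ifnb1, Jak2 and Stat2, beside 2.51%), and 1 was in the vector line (Stat2, beside 0.185%). With quantile normalization the hSTING count was 2, as Stat2 then differed by 0.97. In control cells Stat2 was the 1 gene apart from vector cells in R284S (1.88% of all genes), N154S (1.41%) and hSTING (0.433%). Among the STING lines' control cells 0 of 9 were apart, for R284S against hSTING (1.19%), N154S against hSTING (0.753%) and R284S against N154S (0.464%).

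With dsDNA, R284S differed from vector cells in 1 gene (Stat2, beside 1.98% of all genes), N154S in 2 (Ifnb1 and Stat2, 2.46%) and hSTING in 3 (Ifnb1, Jak2 and Stat2, 2.88%). Between STING lines with dsDNA, R284S was lower than hSTING in Ifnb1 and Jak2 (2 of 9, beside 2.70%). N154S was lower than hSTING in Ifnb1 (1 of 9, beside 0.735%), and R284S was lower than N154S in Ifnb1 (1 of 9, beside 0.735%).

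Between the STING lines the fit called 0 of 9 members, with 0 of 9 at an unadjusted p under 0.05. It called 0.951% of all genes for R284S against hSTING, 0% for N154S against hSTING and 0.00902% for R284S against N154S. For N154S against hSTING 1974 genes had an unadjusted p under 0.05, and 125 passed under trended, robust variances. The difference of Stat2 was -0.03 for R284S against hSTING (95% interval -0.86 to 0.81), 0.47 for N154S against hSTING (-0.37 to 1.30) and -0.49 for R284S against N154S (-1.32 to 0.34). For Ifnb1 the intervals were wide, at -5.66 to 0.75 for R284S against hSTING and -5.32 to 1.08 for N154S against hSTING.

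For dsDNA against control over all 4 lines the fit likewise called 0 of 9 members and 0% of all genes. The smallest adjusted p of all genes was 0.0586, 2395 genes had an unadjusted p under 0.05, and 4 passed under trended, robust variances. Of the members, Stat2 (0.75, SE 0.25, unadjusted p = 0.0198, adjusted p = 0.448) and Jak2 were at an unadjusted p under 0.05. The median effect was 0.16 over the 9 genes and 0.00 over all genes.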

How the data were processed

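The deposited values were log2 array signals made by the authors, rounded to 2 decimals, for 41345 probe sets on 8 arrays. Per the labels' protocols, 300 ng of total RNA per sample was prepared with GeneChip WT PLUS reagents. The software was Expression Console 1.3.1.187 from Affymetrix, per the submitters' processing notes. The sources used here do not state the background correction, the summarisation or the genome build. Sorted values of any pair of arrays differed by at most 0.25, so the arrays had been brought to nearly one distribution. The number of arrays limits the precision.

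Of the probe sets, 23521 carried 1 symbol in the platform annotation, 1814 several and 16010 none listed there. Per gene the probe set with the highest mean was kept, which gave 22180 genes. Socs3 was the member with more than 1 probe set. Arrays were mapped to groups by the sample titles.

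limma 3.58.1 in R 4.3.3 was fitted to all genes with line and treatment as additive terms (3 residual and 4.03 prior degrees of freedom). A second fit added the dsDNA effect in STING lines against vector (2 residual degrees of freedom). P-values measure the unevenness of these single populations, not replicate cultures. The additive fit was run on simulated data to see whether known differences of R284S from vector were recovered. Those data held no dsDNA effect and no uneven response of the lines to it, so the run does not check the p-values. The dsDNA effect and the second fit were not checked in this way. Folds with a dim signal are lower bounds against the array median. Alternatives were quantile normalization, a filter on dim genes, trended, robust eBayes variances, the mean of a gene's probe sets, and leaving out each line's pair of arrays. The members, the gene lists and the naming rule were chosen with earlier results of these data known. Named were the members, the 3 genes most like each member with a range of at least 1 and a mean at or above the median, list genes that passed the test and the markers. Genes most like Ifnb1, whose mean was dim, and further list genes were added after the values were seen. Promoter windows from RefSeq matched all 9 members.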

Additional observations from a re-analysis of the deposited data

Results flagged for a closer look

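Ifnb1 gave dsDNA differences of opposite sign in different lines, but most of the signals behind them were dim, so the sign in R284S cells is not read as a change. The difference was -1.02 on the log2 scale in R284S cells, against 2.13 in N154S cells and 5.59 in hSTING cells. The gap between R284S and N154S was -3.15 and that between R284S and hSTING was -6.61. These gaps between lines were not tested, since each rests on 4 arrays without replicates. Both R284S signals, 3.04 with dsDNA and 4.06 in control cells, were under the median signal of their arrays, as were the control signals in N154S and hSTING cells.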

How the results depend on the processing

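The fit of dsDNA against control already pairs both arrays of each line. No replicate block could be added to it, since the labels give no replicate numbers and each group is 1 array. Of 58 counts of called members under an alternative, 52 were as in the fit reported, 5 were lower and 1 was higher. Most of the 58 belong to comparisons in which the fit reported called no member, so they could not fall. The 5 lower counts all lost the call of Stat2. Of the counts of members 2-fold apart, 32 of 32 were within 1.5 times the reported one. No coefficient or difference of a member that was recomputed changed its direction.

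Under trended, robust variances 0 members were called for R284S, N154S and the 3 STING lines against vector, where 1 had been. Stat2 then stood at 2.69, 3.18 and 2.86 with adjusted p of 0.0767, 0.0569 and 0.0502. Without the N154S pair of arrays 0 members were called for R284S (Stat2 2.69) and for the 3 lines together (Stat2 2.70). Without the R284S pair 1 was called for hSTING against vector. With quantile normalization the dsDNA difference of Stat2 in hSTING cells was 0.97, just under 2-fold, so that 2 members in place of 3 were 2-fold apart there.

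Counts over all genes moved more. For R284S against vector the 453 genes became 761 with the filter on dim genes, 854 with trended, robust variances and 129 without the N154S pair. For N154S the 292 became 662, 726, 594 without the hSTING pair and 178 without the R284S pair. For hSTING the 22 became 0 without the N154S pair and 47 without the R284S pair. For the 3 lines together the 317 became 546 with the filter, 620 with trended, robust variances, and 967, 28 and 122 without the hSTING, N154S and R284S pairs. For R284S against hSTING the 211 became 455 with the filter, 584 with trended, robust variances, 79 without the vector pair and 47 without the N154S pair. For N154S against hSTING the 0 became 16 and 125. For R284S against N154S the 2 became 12 with trended, robust variances, 0 without the vector pair and 7 without the hSTING pair. For dsDNA the 0 became 4 with trended, robust variances and 1 without the vector pair. The causes were not tested.

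With 1 array per line and treatment, no difference between 2 arrays has an error of its own, and signals under the array median, such as those of Ifnb1 on 6 of 8 arrays, limit what can be read from them.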

Other observations

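Some cytokines that signal through JAK-STAT receptors were brighter with dsDNA in hSTING and N154S cells. Of 10 in the list, 5 were 2-fold or more higher with dsDNA than in control cells of the hSTING line, where 2.51% of all genes were 2-fold apart in either direction. In the N154S line 3 were, beside 0.487% of all genes, and 0 of the 10 passed in any coefficient of the fit. For dsDNA 6 of 10 had an unadjusted p under 0.05, as had 10.8% of all genes. Ctf1 read 5.99 with dsDNA in hSTING cells, its lowest signal, and Clcf1 was highest in N154S control cells, at 6.46. The genes named here were chosen after their values were seen. Il6, which encodes interleukin 6, read 8.34 in R284S, 9.71 in N154S and 10.50 in hSTING cells with dsDNA, against 7.69 in vector cells with dsDNA. The control signals of Il6 were 8.29 (R284S), 8.36 (N154S) and 7.48 (hSTING), against 7.41 for vector cells. The leukaemia inhibitory factor gene Lif had a dsDNA difference of 0.26 in R284S, 1.26 in N154S and 2.38 in hSTING cells, against 0.05 in vector cells. For Csf2, which encodes the growth factor GM-CSF, it was 0.57 in R284S, 1.36 in N154S and 3.62 in hSTING cells, against -0.03 in vector cells. The hSTING control signal of Csf2, 4.13, was dim, so its fold there was at least 9.85. For Il15, also counted in the hSTING line, that control signal of 3.93 was dim too, and the fold was at least 1.62. Socs3, which interleukin 6 family receptors can induce in other settings, had dsDNA differences of -0.41 in R284S, -0.21 in N154S and 0.05 in hSTING cells, against -0.19 in vector cells.

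The genes whose signals ran most like that of Ifnb1 over the 8 arrays were Gypc, which encodes a membrane glycoprotein of red cells (r = 0.990), the NF-kB inhibitor gene Nfkbie (r = 0.981) and D17H6S56E-5 (r = 0.978). This ranking, over arrays that share lines and treatments, is a description. It rests largely on the hSTING dsDNA array, where Ifnb1 read 8.80 against at most 4.95 elsewhere. Nfkbie read 5.37 in R284S, 5.74 in N154S and 6.82 in hSTING cells with dsDNA, against 5.20 in vector cells with dsDNA.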
